A study of Homo sapiens with 40 samples.

Results

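The comparison described here asked, gene by gene, whether loss of the coregulator CoCoA (gene CALCOCO1) altered the response of A549 cells to dexamethasone (dex), a synthetic glucocorticoid. For every gene, dex minus ethanol in cells holding siRNA against CoCoA (siCoCoA) was taken, and dex minus ethanol in cells holding a nonspecific siRNA (siNS) was subtracted from it. It rested on 20 of the 40 arrays of the study, namely 4 siCoCoA arrays in dex, 4 siCoCoA arrays in ethanol, 6 siNS arrays in dex and 6 siNS arrays in ethanol. All came from A549, an established human lung carcinoma line. All of these cells had been transfected with an siRNA and moved to hormone-free medium before they received 100 nM dex or the ethanol vehicle for 6 h. The titles of the ethanol arrays name 0 h, whereas the treatment protocol gives ethanol as the control of the 6 h treatment, and they were used as vehicle controls. The other 20 arrays held siRNA against CCAR1 (4 and 4), CCAR2 (4 and 4) or ZNF282 (2 and 2) with the same treatments. The titles of the siZNF282 arrays all carry the mark #1, and the labels number no siRNA for the other targets. They do not say whether arrays of a group came from separate cultures, so p-values measure the spread between these arrays.

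The glucocorticoid receptor (GR, gene NR3C1) is held in the cytoplasm by chaperones until it binds hormone. It then enters the nucleus, binds DNA and raises genes such as TSC22D3 and DUSP1, while lowering many inflammatory genes driven by NF-kB and AP-1. CoCoA, the coiled-coil coactivator, binds p160 coactivators that the receptor recruits. Interferon-stimulated genes form a separate program that STAT and IRF factors switch on through interferon-stimulated response elements in promoters.

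Few genes passed the test for an altered dex response. Of 10608 genes tested, 1 passed at an adjusted p under 0.05 (limma, Benjamini-Hochberg over all genes), which is 0.00943% of them (0 higher, 0.00943% lower), and it was EMP1, with a weaker response in siCoCoA cells. At an unadjusted p under 0.05 there were 523 genes (4.93%), 288 with a positive and 235 with a negative difference. Dex and ethanol arrays of the same siRNA and replicate number deviated together, so a second fit kept each such pair as a block. This paired fit called 5 genes (0.0471%): EMP1 again with a weaker response, and CASP1, NT5C3A, ZNFX1 and SLC15A3 (0.0377%) with a higher response in siCoCoA cells. The last 4 are named because the paired fit called them, after their values were seen. At an unadjusted p under 0.05 the paired fit counted 873 genes (8.23%), 471 positive and 402 negative.

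The median 95% interval of the difference reached 0.42 to either side on the log2 scale, and 10004 of the 10608 genes (94.3%) had an interval that lay within a 2-fold change in either direction. The median difference over all genes was 0.0045, and only 12 genes had an estimate beyond 2-fold. By contrast, the levels within each treatment differed between siCoCoA and siNS cells for 2129 genes in dex (20.1%) and for 1640 genes in ethanol (15.5%). Which part of these level differences came from loss of CALCOCO1 and which from other effects of the siRNA was not tested. Correlations between pairs of the 20 arrays ran from 0.969 to 0.994, and no array stood apart.

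CALCOCO1, the target, was measured near background, taken as a group mean below 5 on the log2 intensity scale. The siCoCoA dex arrays read 4.48, 4.43, 4.54 and 4.56 and the siCoCoA ethanol arrays 5.00, 4.68, 4.73 and 4.71. The siNS dex arrays read 5.44, 5.27, 5.68, 5.62, 4.95 and 5.34 and the siNS ethanol arrays 5.41, 5.33, 5.57, 5.08, 5.22 and 4.69. In dex every siCoCoA array lay below every siNS array, whereas in ethanol the lowest siNS array lay among the siCoCoA arrays. The siCoCoA minus siNS difference was −0.88 in dex (limma, adjusted p = 9.2e-06) and −0.44 in ethanol (limma, adjusted p = 0.026). Its dex response did not pass the test for a difference (−0.44 ± 0.20 SE, adjusted p = 0.998).

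The other targets and the receptor gave no call. NR3C1 had a dex response of −0.35 in siCoCoA cells and −0.31 in siNS cells, a difference of −0.04 with a 95% interval from −0.51 to 0.43. CCAR1 differed by 0.27 (−0.27 to 0.82), CCAR2 by −0.14 (−0.55 to 0.27) and ZNF282 by 0.03 (−0.57 to 0.62). The level of CCAR2, a coregulator also targeted in this study, was itself lower in siCoCoA cells, by −1.10 in dex (limma, adjusted p = 4.1e-07) and −0.96 in ethanol (limma, adjusted p = 7.6e-06). Its part in the results below was not tested. Of the 36 measured genes among the receptor, its chaperones and its cofactors, none passed in either fit, their median difference was 0.014, and all 36 had an interval within 2-fold. Besides CALCOCO1, the smallest p of that list belonged to CALCOCO2, an autophagy receptor related to CoCoA, with dex responses of 0.59 in siCoCoA cells and 0.97 in siNS cells (difference −0.38 ± 0.20, limma, adjusted p = 0.998).

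EMP1 encodes epithelial membrane protein 1, a tetraspan protein of the cell surface. Its probe (ILMN_1801616) read 9.27, 9.32, 9.77 and 9.16 log2 units on siCoCoA dex arrays and 7.85, 8.29, 8.30 and 8.33 on siCoCoA ethanol arrays. It read 8.99, 9.20, 9.40, 9.24, 8.89 and 9.52 on siNS dex arrays and 6.60, 6.58, 7.12, 6.90, 6.24 and 6.88 on siNS ethanol arrays. The dex arrays of the 2 siRNAs overlapped, while every siCoCoA ethanol array lay above every siNS ethanol array. Per replicate pair, dex minus ethanol was 1.43, 1.04, 1.47 and 0.84 in siCoCoA cells, against 2.28 to 2.65 in the 6 siNS pairs, with no overlap. The dex response was 1.19 in siCoCoA cells and 2.49 in siNS cells, a difference of −1.30 ± 0.24 (SE; 95% interval −1.78 to −0.81; limma, adjusted p = 0.0487). The paired fit gave an SE of 0.17 and an adjusted p of 0.00116. Relative to siNS, the level in siCoCoA cells was 1.47 higher in ethanol (limma, adjusted p = 4.5e-08) and 0.17 higher in dex (limma, adjusted p = 0.53).

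The unpaired call of EMP1 lay close to the threshold. It held without siCoCoA dex replicate 3, siCoCoA ethanol replicate 1, siNS dex replicate 1, 4 or 5, or siNS ethanol replicate 3, with adjusted p of at most 0.0486. Without any 1 of the other 14 arrays it was lost, with adjusted p between 0.0524 and 0.222 and differences that stayed between −1.43 and −1.20 over all 20 omissions. It was also lost in a fit of the 4 groups alone (adjusted p = 0.0602), with no filter on low probes (0.0803) and with siNS replicates 1 to 4 only (0.329). The paired fit kept it without any 1 of the 10 pairs, with adjusted p of at most 0.00999.

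CASP1 encodes caspase-1, the protease of inflammasomes. It read 6.08, 6.52, 5.72 and 6.09 on siCoCoA dex arrays and 4.62, 5.33, 4.49 and 4.79 on siCoCoA ethanol arrays, against 4.28 to 4.75 on the 6 siNS dex arrays and 4.27 to 4.54 on the 6 siNS ethanol arrays. Only the siCoCoA dex arrays all lay above background. Dex minus ethanol was 1.46, 1.19, 1.23 and 1.30 in the siCoCoA pairs and −0.27 to 0.47 in the siNS pairs, with no overlap. The difference was 1.24, with an SE of 0.40 and an adjusted p of 0.931 in the unpaired limma fit, and an SE of 0.16 and an adjusted p of 0.00116 in the paired fit. The paired call held without any 1 of the 10 pairs, with adjusted p of at most 0.0135. A dimmer second CASP1 probe gave 0.58.

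ZNFX1, an interferon-induced RNA helicase, read 10.06, 9.89, 9.72 and 9.56 on siCoCoA dex arrays and 9.25, 9.49, 9.20 and 8.70 on siCoCoA ethanol arrays. It read 6.76 to 7.78 on siNS dex arrays and 7.25 to 7.64 on siNS ethanol arrays, so that siCoCoA cells were higher in both treatments. Its dex response was positive in all 4 siCoCoA pairs (0.40 to 0.85) and lay between −0.75 and 0.20 in the siNS pairs. The difference was 0.90, with an adjusted p of 0.903 in the unpaired and 0.0271 in the paired limma fit. NT5C3A, a cytosolic nucleotidase, had dex responses of 0.55, 0.37, 0.25 and 0.57 in siCoCoA pairs and −0.33 to −0.12 in siNS pairs, a difference of 0.69 (adjusted p = 0.931 unpaired and 0.0271 paired, limma). SLC15A3, a lysosomal peptide and histidine transporter, had dex responses of 0.77, 1.21, 0.97 and 1.54 in siCoCoA pairs and −0.03 to 0.30 in siNS pairs (difference 0.98; adjusted p = 0.998 unpaired and 0.0301 paired, limma). It was above the line of 5 only in siCoCoA dex (mean 5.98), and near background at 4.86 in siCoCoA ethanol, 4.51 in siNS dex and 4.37 in siNS ethanol.

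These last 3 calls of the paired fit depended on single pairs. ZNFX1 was lost without siCoCoA pair 1 or 4 or siNS pair 2, 4 or 5, with adjusted p up to 0.112. NT5C3A held only without siCoCoA pair 3 or siNS pair 1 or 6, and otherwise reached adjusted p up to 0.112. SLC15A3 held only without siCoCoA pair 1 or siNS pair 1, and otherwise reached adjusted p up to 0.14. In a paired fit of the 20 arrays alone, ZNFX1 (adjusted p = 0.0917, limma) and NT5C3A (0.0519) were lost, and EMP1, CASP1 and SLC15A3 held. The differences stayed positive without any 1 pair, between 0.64 and 1.10 over the 3 genes.

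**Figure D1:**
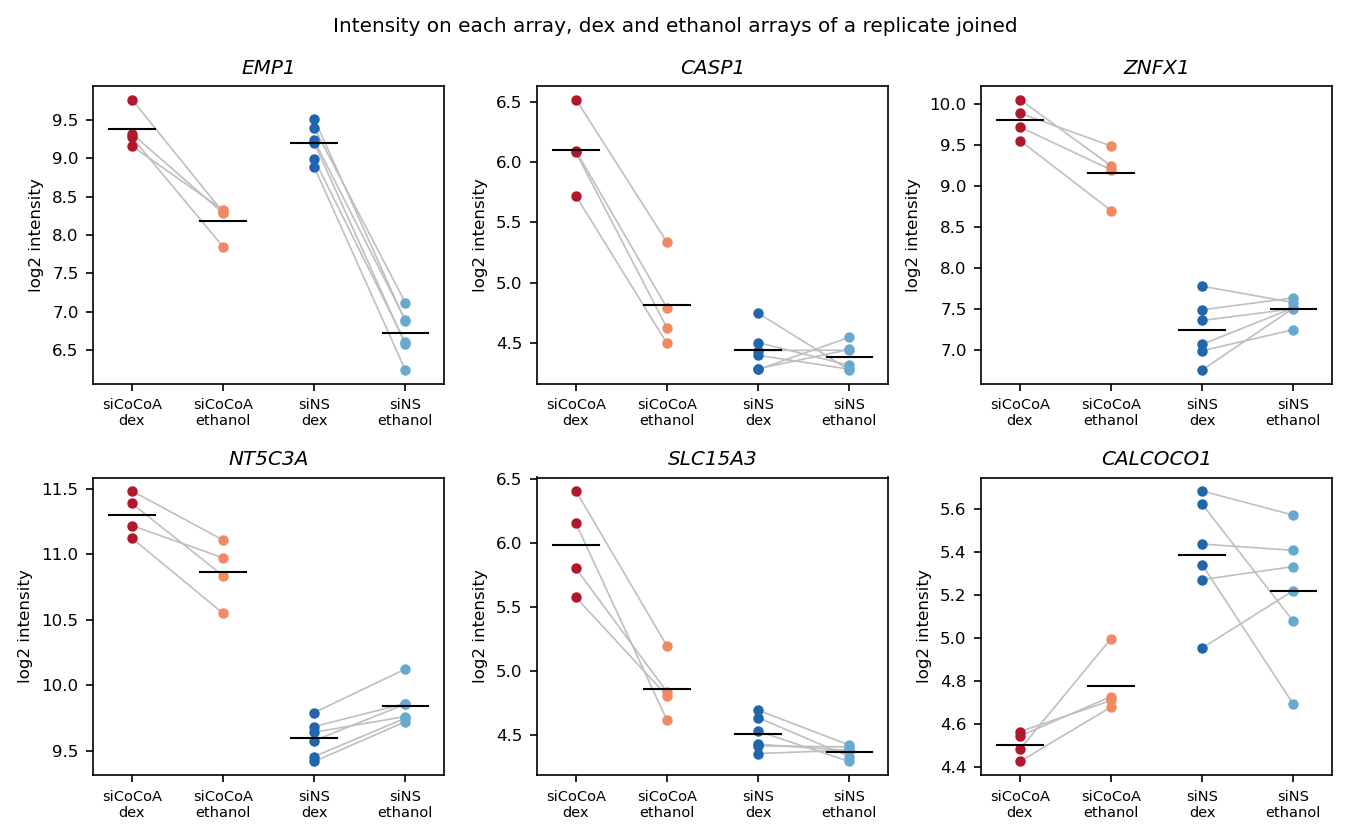
Log2 intensity (vertical axis) of 6 genes on each of the 20 arrays, with groups along the horizontal axis, a point per array, group means as black bars, and grey lines joining the dex and ethanol arrays of a replicate. EMP1 reached like levels in dex under both siRNAs but started higher in siCoCoA ethanol arrays (7.85 to 8.33, against 6.24 to 7.12 in siNS), whereas all 4 siCoCoA lines of CASP1, ZNFX1, NT5C3A and SLC15A3 are higher at the dex end.

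Next in order of p came genes that did not pass. RETNLB, a resistin-like secreted protein, was above the line only in siCoCoA dex (mean 5.54, against 4.84 in siCoCoA ethanol) and had dex responses of 0.41 to 0.93 in siCoCoA pairs and −0.50 to 0.15 in siNS pairs (difference 0.93 ± 0.19, limma, adjusted p = 0.132, paired 0.0522). ST8SIA4, a polysialyltransferase that dex lowered in both, had responses of −1.20 in siCoCoA cells and −2.04 in siNS cells (difference 0.84 ± 0.20, limma, adjusted p = 0.509, paired 0.0522). Its level on siNS dex arrays was near background (4.59), and the probes of ST8SIA4 disagreed, its other probes giving 0.56 and −0.39. The other genes with the smallest p among positive differences were ZNF230 (0.87), LCK (0.80), FRMD8 (0.64) and SP4 (0.64), with adjusted p of 0.253 to 0.887. LCK was below the line of 5 in all 4 groups, ZNF230 in siCoCoA ethanol and siNS dex, and a second SP4 probe gave −0.09. Among negative differences they were CCNB2 (−0.52), LINC02180 (−0.85), DUSP1 (−0.66), PPBP (−0.81) and WDR48 (−0.58), with adjusted p of 0.723 to 0.887. LINC02180 was below the line of 5 in every group but siCoCoA ethanol (mean 5.01).

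Whether the dex program as a whole was weaker was described on genes chosen by their mean dex response in the other depletions. That mean response used no siCoCoA or siNS array. The choice was not fully independent of those arrays, because the spread behind its adjusted p and the filter on low probes drew on them too. Averaged over siCCAR1, siCCAR2 and siZNF282 cells, dex changed 581 genes by at least 1.5-fold past the adjusted threshold, 418 raised and 163 lowered by dex. Of the 418 raised genes, 417 also had a positive response in siCoCoA cells, and all 163 lowered genes had a negative one. The median response of the raised genes was 0.85 in siCoCoA cells and 0.89 in siNS cells, and that of the lowered genes was −0.73 in siCoCoA cells and −0.87 in siNS cells. Counted along the direction of the response, the median shift was −0.080 for raised genes (258 weaker and 160 stronger in siCoCoA cells) and −0.14 for lowered genes (120 weaker and 43 stronger). Over all 10608 genes the median difference was 0.0045.

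Per replicate pair, the median response of the raised genes ran from 0.84 to 0.89 in siCoCoA cells and from 0.85 to 0.97 in siNS cells, so the pairs overlapped. That of the lowered genes ran from −0.86 to −0.72 in siCoCoA cells and from −0.96 to −0.84 in siNS cells, which also overlapped. Of the raised genes, 365 had an interval of the difference within 2-fold, and of the lowered genes 147. Across the 581 genes the responses under the 2 siRNAs correlated at 0.967, and across all 10608 genes at 0.805. These correlations are across genes measured on 1 platform and normalized together, and genes are not independent replicates. Each siRNA's own test called 1053 genes in siCoCoA cells (9.93%) and 1730 in siNS cells (16.3%), which had more arrays. The 814 genes called in both all had the same sign, and they made up 77.3% of the siCoCoA calls and 47.1% of the siNS calls. The paired fit called more, 1558 genes in siCoCoA cells and 2286 in siNS cells, and the overlap was counted in the unpaired fit only.

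**Figure D2:**
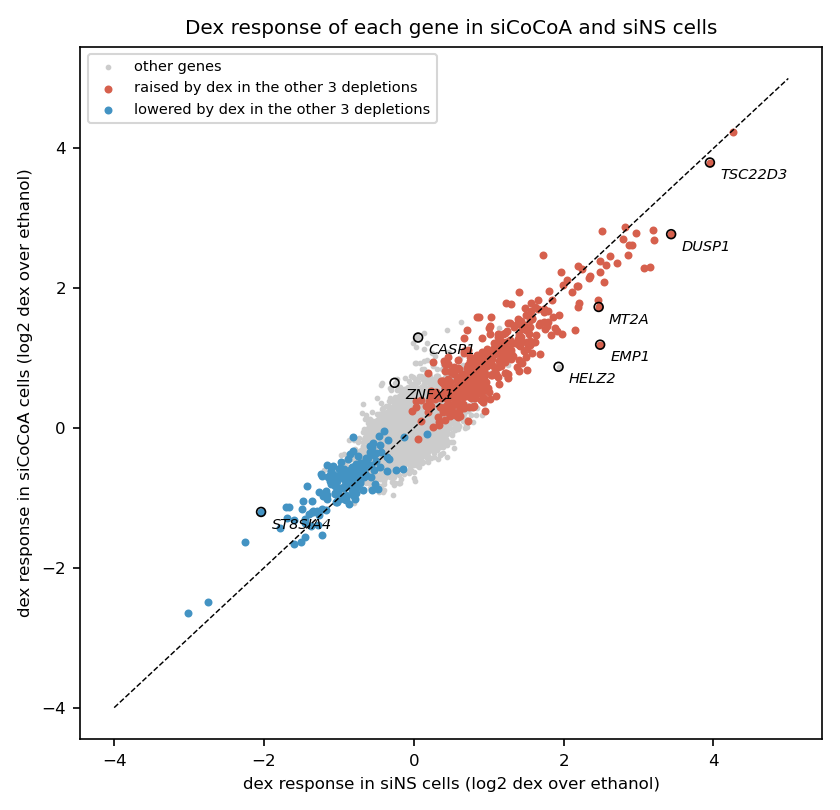
Dex response of each of the 10608 genes in siCoCoA cells (vertical axis) against siNS cells (horizontal axis), both as log2 dex over ethanol, with the line of equal response dashed. Genes raised (418) or lowered (163) by dex in the other 3 depletions are coloured, circles mark named genes, and most points lie near the line while EMP1 falls below it (1.19 in siCoCoA cells and 2.49 in siNS cells).

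Among these dex-responsive genes, the largest shifts towards a weaker response after EMP1 were those of MT1H, ST8SIA4, BEST2, FOS and MT2A. BEST2, a bestrophin anion channel, had dex responses of 2.29 in siCoCoA cells and 3.08 in siNS cells (difference −0.79 ± 0.24, limma, adjusted p = 0.903), against ethanol levels near background, 4.36 in siCoCoA and 4.31 in siNS arrays. FOS, an AP-1 subunit, had 1.40 in siCoCoA cells and 2.15 in siNS cells (difference −0.75 ± 0.26, limma, adjusted p = 0.931). The largest shifts towards a stronger response were those of ST3GAL1, a sialyltransferase (1.59 in siCoCoA cells and 0.85 in siNS cells; difference 0.75, second probe 0.30), TNFAIP8L3, a lipid transfer protein (2.47 in siCoCoA cells and 1.73 in siNS cells), PLAAT2, a phospholipase and acyltransferase (1.59 in siCoCoA cells and 0.87 in siNS cells), and TNFAIP3. None of these passed in either fit. TNFAIP8L3 was near background in ethanol, at 4.81 in siCoCoA and 4.53 in siNS arrays, and PLAAT2 in siNS ethanol arrays (4.49).

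Of 36 measured genes on a list of textbook GR-induced genes, dex raised 29 in siCoCoA cells and 31 in siNS cells (all genes: 5.36% in siCoCoA cells and 7.7% in siNS cells). None passed the test for a different response. At an unadjusted p under 0.05, 4 had a weaker and 1 a stronger response (all genes: 2.22% lower and 2.71% higher), and in the paired fit 9 and 1 (all genes: 3.79% lower and 4.44% higher). The median difference was −0.20, and 29 of the 36 estimates were negative. The pair medians ran from 1.28 to 1.44 in siCoCoA cells and from 1.36 to 1.70 in siNS cells.

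DUSP1, a phosphatase that shuts off MAP kinases, read 12.27, 12.24, 12.22 and 12.22 on siCoCoA dex arrays and 9.13, 9.71, 9.53 and 9.49 on siCoCoA ethanol arrays. The siNS dex arrays read 11.83, 12.30, 12.38, 12.35, 12.17 and 12.36 and the siNS ethanol arrays 8.69, 9.16, 8.65, 8.80, 8.64 and 8.84. The dex levels overlapped, and the ethanol level was 0.67 higher in siCoCoA cells (limma, adjusted p = 0.00033). The responses, 2.77 in siCoCoA cells and 3.44 in siNS cells, differed by −0.66 ± 0.18 (limma, adjusted p = 0.887, paired 0.123). TSC22D3, which encodes the GR-induced leucine zipper GILZ, had 3.80 in siCoCoA cells and 3.95 in siNS cells, and CIDEC, a lipid droplet protein, 4.23 in siCoCoA cells and 4.26 in siNS cells. Both are named for their high responses, after their values were seen. Of the 19 MAP kinase and signalling feedback genes, the smallest p after DUSP1 belonged to SOCS2, an inhibitor of cytokine signalling, at −0.57 in siCoCoA cells and −0.98 in siNS cells (difference 0.41, second probe 0.13). The median of that list was −0.042.

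Metallothioneins are small zinc-binding proteins that glucocorticoids and metal ions induce. The list held 6 of them and the zinc exporter SLC30A1, and all 7 differences were negative, with a median of −0.34 and a range from −0.86 to −0.07. None passed, and 2 were lower under an unadjusted p of 0.05 (all genes: 2.22% lower), in the paired fit 3 (all genes: 3.79% lower). The median response per pair ran from 1.60 to 1.88 in siCoCoA cells and from 2.19 to 2.88 in siNS cells, with no overlap. That median was the value of MT2A itself in 2 of the 4 siCoCoA pairs and 5 of the 6 siNS pairs, and its gap is wider than the median of the 7 differences. Without MT2A, a choice made after seeing the data, the pair medians of the other 6 genes ran from 1.79 to 2.07 in siCoCoA cells and from 2.17 to 2.62 in siNS cells. MT2A read 14.05, 13.96, 13.94 and 14.17 on siCoCoA dex arrays and 11.98, 12.36, 12.22 and 12.64 on siCoCoA ethanol arrays, against 13.78 to 14.25 on siNS dex arrays and 11.23 to 12.01 on siNS ethanol arrays. Its dex values lay close to the highest value in the whole table, 14.3, and what a ceiling of the scale contributed was not tested. Its difference was −0.74 ± 0.23 (limma, adjusted p = 0.903, paired 0.179). MT1H, well below that range, read 7.45, 7.78, 8.52 and 7.95 on siCoCoA dex arrays and 5.14 to 5.91 on siCoCoA ethanol arrays, against 8.51 to 9.60 on siNS dex arrays and 5.29 to 6.45 on siNS ethanol arrays. Its dex responses were 2.30 in siCoCoA cells and 3.16 in siNS cells (difference −0.86 ± 0.41, limma, adjusted p = 0.998, paired 0.174). Family members are alike in sequence, and shared hybridisation between them was not tested.

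**Figure D3:**
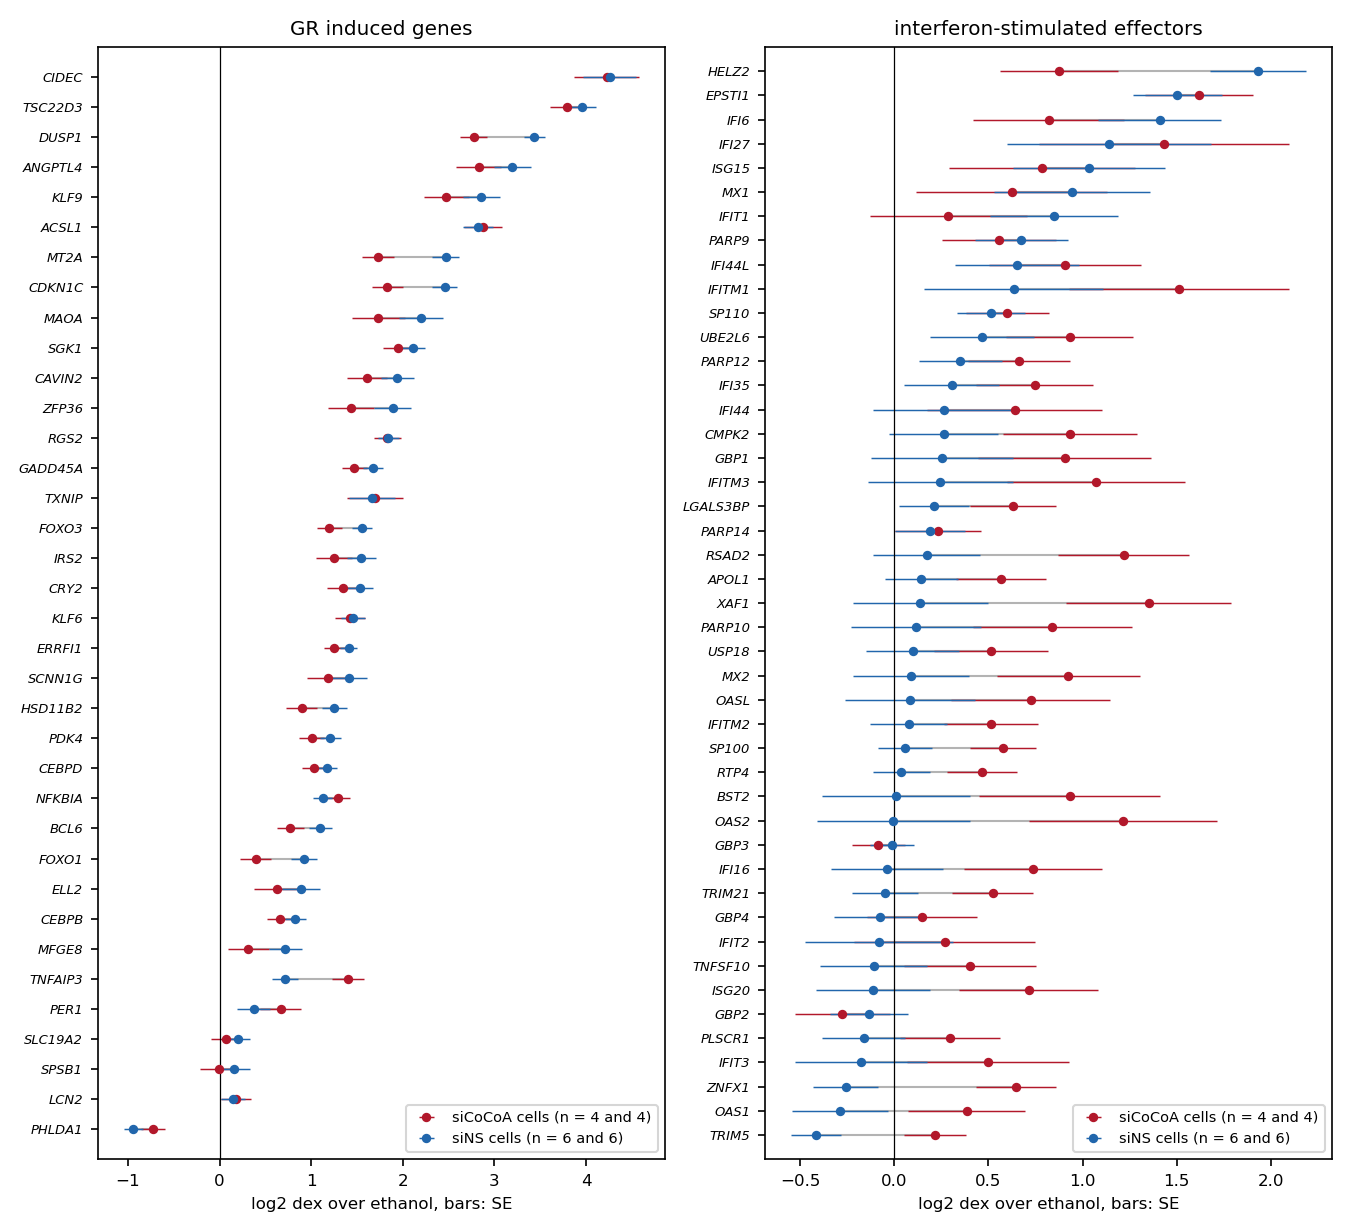
Dex response (horizontal axis, log2 dex over ethanol, bars show the SE of the fit) of the 36 measured GR-induced genes and the 45 measured interferon-stimulated effectors, with siCoCoA cells in red and siNS cells in blue. The red points lie left of the blue ones for 29 of the 36 GR-induced genes and right of them for 37 of the 45 interferon-stimulated effectors, HELZ2 being the largest of the 8 exceptions.

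Interferon-stimulated effectors had the highest median difference of the 36 gene lists. Of 45 measured effectors, 37 had a higher dex response in siCoCoA cells, with a median difference of 0.44. The median response was 0.65 in siCoCoA cells and 0.14 in siNS cells. Unpaired, none passed the adjusted test, and 6 were higher and 1 lower at an unadjusted p under 0.05 (all genes: 2.71% higher and 2.22% lower). In the paired fit ZNFX1 passed, and 25 were higher and 1 lower without adjustment (all genes: 4.44% higher and 3.79% lower). The pair medians overlapped, at 0.52 to 0.88 in siCoCoA cells and −0.24 to 0.58 in siNS cells. Tested by itself in the unpaired fit, the dex response was called positive for 5 of the 45 genes in siCoCoA cells and 4 in siNS cells (all genes: 5.36% and 7.7%). It was called negative for 0 in siCoCoA cells and 1 in siNS cells (all genes: 484 and 913 of 10608). This group was already high before hormone: the median siCoCoA minus siNS level difference was 2.21 in ethanol, with 42 of the 45 genes called higher (all genes: 8.44%), and 2.81 in dex, with 43 called higher (all genes: 11%). Their intervals were wide, and only 9 of the 45 lay within 2-fold. Of the 45 genes, 14 were near background in at least 1 group.

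TRIM5, a restriction factor of retroviral capsids, read 9.90, 10.09, 9.81 and 10.10 on siCoCoA dex arrays and 9.76, 9.86, 9.62 and 9.80 on siCoCoA ethanol arrays, against 7.43 to 8.13 on siNS dex arrays and 8.06 to 8.25 on siNS ethanol arrays. Its response was 0.22 in siCoCoA cells and −0.42 in siNS cells (difference 0.63 ± 0.21, limma, adjusted p = 0.931), and 2 further probes gave 0.87 and 0.27. HELZ2, a helicase and transcriptional coactivator, went the other way and is named for that reason. Its mean level was 10.96 in siCoCoA dex arrays and 10.09 in siCoCoA ethanol arrays, against 8.48 in siNS dex arrays and 6.54 in siNS ethanol arrays. The dex response was therefore 0.88 in siCoCoA cells and 1.93 in siNS cells (difference −1.06 ± 0.40, limma, adjusted p = 0.972, paired 0.0542). LAMP3, a lysosomal membrane protein that stood on the list of alveolar markers and that interferon also induces, had the highest estimate of all genes, 1.28 ± 0.65 (limma, adjusted p = 0.998, paired 0.059). Its mean level was 8.02 in siCoCoA dex arrays and 6.70 in siCoCoA ethanol arrays. In siNS arrays it was near background, at 4.81 in dex and 4.76 in ethanol. A second LAMP3 probe gave a difference of 0.54.

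The MHC class I list covered the peptide transporter, the immunoproteasome and the heavy chains. Of 20 measured genes, 17 differences were positive, with a median of 0.38. None passed in either fit, and 4 were higher and 0 lower without adjustment (all genes: 2.71% and 2.22%), in the paired fit 11 and 0 (all genes: 4.44% and 3.79%). The pair medians stood apart, at 0.36 to 0.55 in siCoCoA cells and −0.06 to 0.13 in siNS cells. Tested by itself in the unpaired fit, the dex response was called positive for 3 of the 20 genes in siCoCoA cells and 0 in siNS cells (all genes: 5.36% and 7.7%). It was called negative for 0 genes under either siRNA. TAP2, a subunit of the peptide transporter, read 7.57, 7.49, 6.90 and 6.79 on siCoCoA dex arrays and 6.37, 7.03, 6.54 and 6.21 on siCoCoA ethanol arrays, against 4.69 to 5.81 on siNS dex arrays and 5.45 to 6.11 on siNS ethanol arrays. Its dex response was 0.35 to 1.20 in siCoCoA pairs and −0.77 to −0.01 in siNS pairs (difference 1.07 ± 0.44, limma, adjusted p = 0.998, paired 0.0583). NLRC5, the transactivator of class I genes, had 0.48 in siCoCoA cells and 0.00 in siNS cells (difference 0.48 ± 0.21, limma, adjusted p = 0.998). Its siNS levels were near background, at 4.44 in dex and 4.44 in ethanol. Of the 20 genes, 4 were near background in at least 1 group.

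Upstream of these genes, IFNL1, a type III interferon, read 5.83, 6.27, 5.94 and 4.92 on siCoCoA dex arrays and 4.28, 5.04, 4.73 and 4.30 on siCoCoA ethanol arrays, while all siNS arrays lay between 4.22 and 4.64. Its difference was 1.12 ± 0.52 (limma, adjusted p = 0.998, paired 0.102), and that of a dimmer second IFNL1 probe was 0.22. IFNAR2, a subunit of the type I receptor, had responses of −0.23 in siCoCoA cells and 0.19 in siNS cells (difference −0.42 ± 0.15, limma, adjusted p = 0.931), but a second IFNAR2 probe gave a difference of the opposite sign, 0.28. The 22 measured interferons, receptors, STATs and IRFs had a median of 0.14, and the 13 measured genes of double-stranded RNA sensing one of 0.33, with 12 of 13 positive. Among the sensing genes the smallest p belonged to TLR3, an endosomal RNA receptor (0.58 in siCoCoA cells and −0.07 in siNS cells, limma, adjusted p = 0.998; difference 0.65, second probe 0.19), and ZC3HAV1, an antiviral zinc finger protein (0.08 in siCoCoA cells and −0.25 in siNS cells). Neither list had a call. Near background in at least 1 group were 6 of the 22 genes and 5 of the 13. TLR3 was among them, at 4.50 in siNS dex and 4.57 in siNS ethanol arrays.

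Promoter sequence was set beside these groups as a description only. Their lists were written from general knowledge of interferon and glucocorticoid biology. Every measured member with an entry was searched, whatever the sign of its difference. The shares therefore do not bear on the change of dex response. The 250 bases before each annotated start were searched on both strands for GAAA followed, after any 2 bases, by GAAA, the core of the interferon-stimulated response element, in RefSeq sequence of GRCh38.p14. It was found for 23 of the 35 interferon-stimulated effectors with an entry (65.7%), 8 of 18 MHC class I genes (44.4%), 3 of 29 GR-induced genes (10.3%) and 0 of 4 metallothionein list genes, against 1014 of 27305 genes in all (3.71%; 3.02% of all promoters). The TGTTCT hexamer of glucocorticoid response elements occurred for 3 of 29 GR-induced genes (10.3%) and for 14.8% of all genes. A match describes letters and not a bound site. The 3 promoters below belong to the genes of these lists with a match and the smallest paired p among those with an entry, and capitals mark the match. TAP2 lies at chr6:32838740-32838989 on the minus strand, RSAD2 at chr2:6877527-6877776 on the plus strand and ISG20 at chr15:88638766-88639015 on the plus strand, and their matches begin 58, 145 and 69 bases before the start.
TAP2: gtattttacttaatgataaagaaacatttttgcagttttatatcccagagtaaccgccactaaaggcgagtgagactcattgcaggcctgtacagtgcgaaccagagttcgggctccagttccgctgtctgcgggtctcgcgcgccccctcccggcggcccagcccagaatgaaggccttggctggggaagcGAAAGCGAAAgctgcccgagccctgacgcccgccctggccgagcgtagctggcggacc
RSAD2: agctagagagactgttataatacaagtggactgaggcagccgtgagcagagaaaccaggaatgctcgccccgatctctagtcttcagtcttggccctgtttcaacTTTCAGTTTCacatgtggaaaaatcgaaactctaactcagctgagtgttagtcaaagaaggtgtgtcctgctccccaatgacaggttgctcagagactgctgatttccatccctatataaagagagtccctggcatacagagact
ISG20: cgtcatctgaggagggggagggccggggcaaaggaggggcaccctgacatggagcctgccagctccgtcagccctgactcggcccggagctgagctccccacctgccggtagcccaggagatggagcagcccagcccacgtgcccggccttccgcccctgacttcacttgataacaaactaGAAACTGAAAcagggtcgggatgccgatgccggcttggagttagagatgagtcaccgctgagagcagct

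RSAD2, which encodes the antiviral protein viperin, had dex responses of 1.22 in siCoCoA cells and 0.17 in siNS cells (difference 1.05 ± 0.45, limma, adjusted p = 0.998, paired 0.0583). ISG20, an antiviral exonuclease, had 0.71 in siCoCoA cells and −0.11 in siNS cells (difference 0.83 ± 0.48, limma, adjusted p = 0.998, paired 0.197). Both were far higher in siCoCoA cells in either treatment. For RSAD2 the level difference was 2.81 in dex and 1.77 in ethanol, and for ISG20 it was 2.70 in dex and 1.87 in ethanol.

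**Figure D4:**
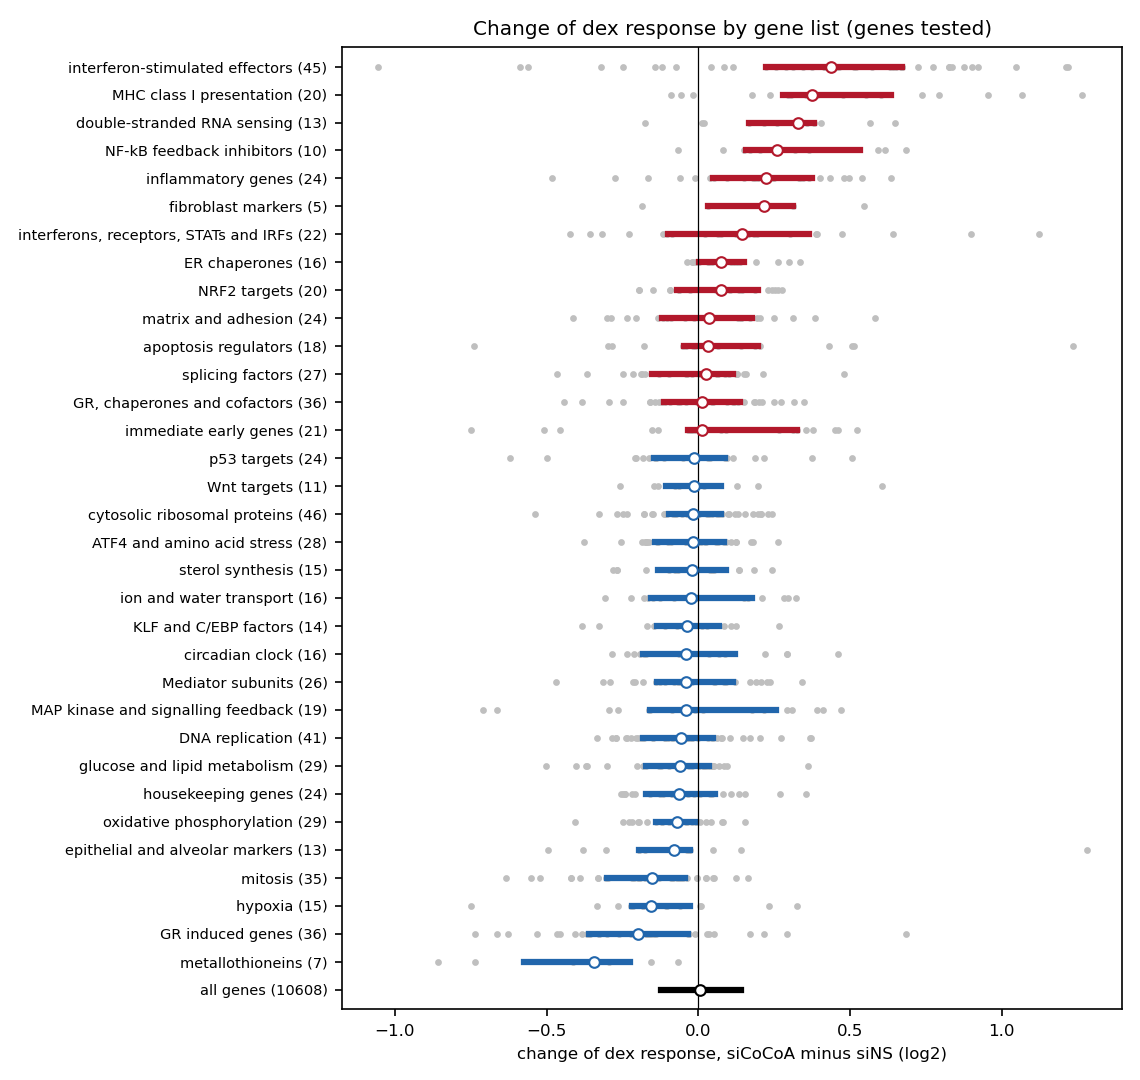
Change of the dex response, siCoCoA minus siNS on the log2 scale (horizontal axis), for each gene list with at least 5 measured genes (vertical axis, number of genes in brackets), with grey points for genes, thick bars for the middle 50% and open circles for medians. The lists run from metallothioneins (median −0.34) and GR-induced genes (−0.20) to MHC class I (0.38) and interferon-stimulated effectors (0.44), and the black bar at the bottom shows all 10608 genes.

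Genes that glucocorticoids commonly hold down had a median difference on the positive side. Of 24 measured inflammatory genes, 19 differences were positive, with a median of 0.22. The median response was −0.05 in siCoCoA cells and −0.27 in siNS cells. None passed, and 3 were higher and 1 lower without adjustment (all genes: 2.71% and 2.22%), in the paired fit 6 and 1 (all genes: 4.44% and 3.79%). PTGS2, the inducible cyclooxygenase, read 12.33, 12.19, 12.04 and 11.84 on siCoCoA dex arrays and 12.66 to 12.85 on siCoCoA ethanol arrays, against 11.07 to 11.58 on siNS dex arrays and 12.11 to 12.65 on siNS ethanol arrays. Dex lowered it under both siRNAs, with responses of −0.68 in siCoCoA cells (limma, adjusted p = 0.0037) and −1.22 in siNS cells (limma, adjusted p = 4.5e-09), and the difference was 0.54 ± 0.21 (limma, adjusted p = 0.972, paired 0.297). MMP9, a matrix protease, had 0.19 in siCoCoA cells and 0.67 in siNS cells. It was above the line of 5 only in siNS dex (mean 5.33), and near background at 4.94 in siCoCoA dex, 4.74 in siCoCoA ethanol and 4.66 in siNS ethanol.

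Of the 10 measured feedback inhibitors of NF-kB, 9 differences were positive, with a median of 0.26, and 3 were higher without adjustment in either fit (all genes: 2.71% unpaired and 4.44% paired). Over all genes 5395 of 10608 differences were positive. TNFAIP3, which encodes the ubiquitin editing enzyme A20, read 8.35, 8.21, 8.06 and 8.01 on siCoCoA dex arrays and 6.92, 6.91, 6.85 and 6.35 on siCoCoA ethanol arrays. The siNS dex arrays read 7.42, 7.51, 7.93, 7.32, 7.64 and 7.16 and the siNS ethanol arrays 6.55 to 7.08. Here the ethanol arrays overlapped and the siCoCoA dex arrays all lay above the siNS dex arrays. Its response was 1.40 in siCoCoA cells and 0.72 in siNS cells (difference 0.68 ± 0.22, limma, adjusted p = 0.931, paired 0.0933). TNIP2, a partner of A20, had 0.38 in siCoCoA cells and −0.24 in siNS cells (limma, adjusted p = 0.972).

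Mitotic genes lay on the negative side. Of 35 measured genes, 29 differences were negative, with a median of −0.15, and 5 were lower and 0 higher without adjustment (all genes: 2.22% and 2.71%), in the paired fit 8 and 0 (all genes: 3.79% and 4.44%). The pair medians ran from −0.44 to −0.31 in siCoCoA cells and from −0.30 to −0.19 in siNS cells. CCNB2, cyclin B2, read 9.42, 9.42, 9.12 and 9.26 on siCoCoA dex arrays and 9.90, 9.90, 9.69 and 9.71 on siCoCoA ethanol arrays, against 9.96 to 10.48 on siNS dex arrays and 10.09 to 10.32 on siNS ethanol arrays. Its response was −0.57 to −0.45 in siCoCoA pairs and −0.13 to 0.21 in siNS pairs (difference −0.52 ± 0.13, limma, adjusted p = 0.723, paired 0.123). CENPE, a kinetochore motor, had −0.82 in siCoCoA cells and −0.26 in siNS cells, but its second probe gave a difference of 0.10 in place of −0.55. The level of 33 of the 35 genes was called lower in siCoCoA cells in dex (all genes: 9.07%) and that of 27 in ethanol (all genes: 7.02%), so the group stood lower before hormone. In bulk cells, fewer cycling cells and less transcript per cell cannot be told apart. The 41 measured DNA replication genes had a median of −0.058 with none under an unadjusted p of 0.05 (paired 1, ORC1, positive), and the smallest p belonged to ORC1 (0.37) and POLE2 (−0.33).

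**Figure D5:**
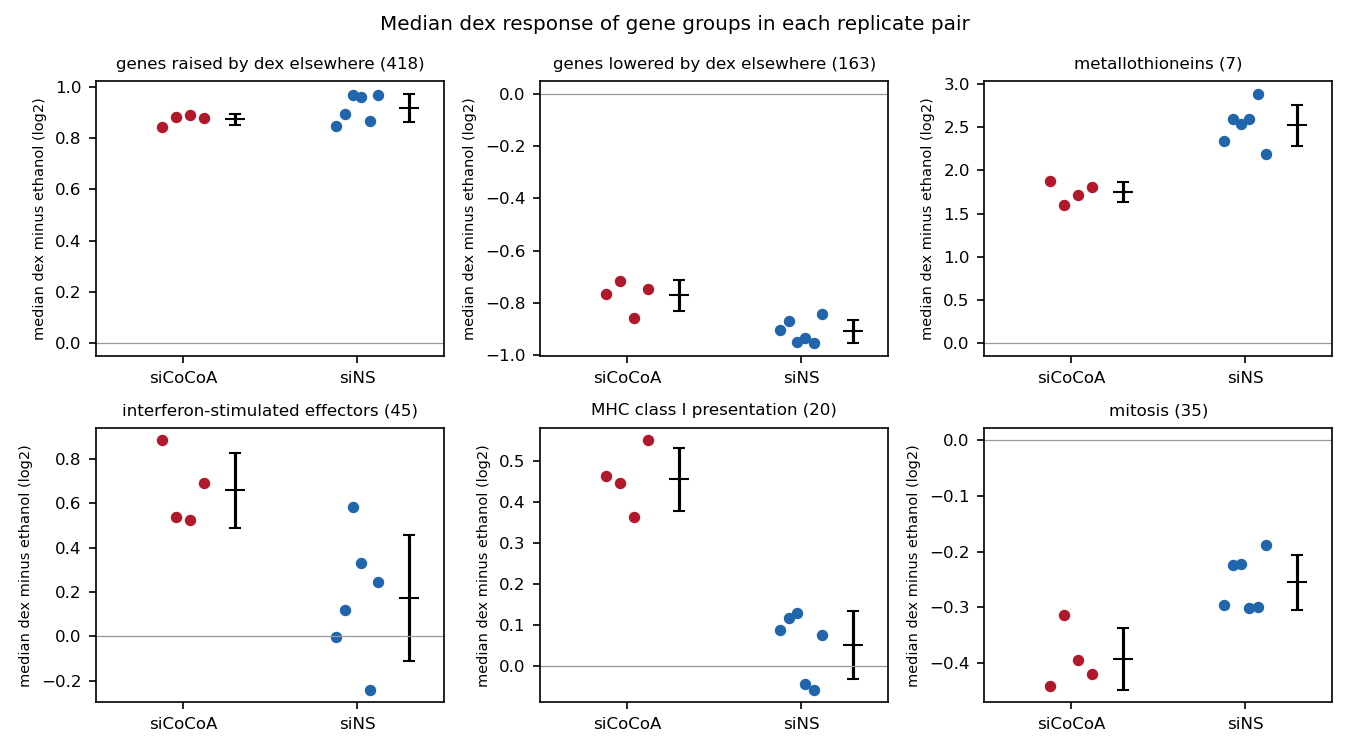
Median dex minus ethanol (vertical axis, log2) of 6 gene groups in each replicate pair, with a point per pair, 4 siCoCoA pairs in red, 6 siNS pairs in blue, and the mean ± SD beside them; vertical axes differ between panels. The pairs of the 2 siRNAs stand apart for metallothioneins (where MT2A is itself the median in 2 siCoCoA and 5 siNS pairs), MHC class I and mitosis, and overlap for the genes raised or lowered by dex in the other depletions and for interferon-stimulated effectors.

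Lists that lay near 0 included cytosolic ribosomal proteins (46 genes, median −0.016, all intervals within 2-fold), circadian clock genes (16 genes, −0.041), KLF and C/EBP factors (14 genes, −0.036), ion and water transport (16 genes, −0.024) and p53 targets (24 genes, −0.014), none with a call. Markers of other cell types were mostly near or below background in these cultures. Above the line of 5 in any group were 2 of 8 endothelial markers, 2 of 11 leukocyte markers (CD14 and CD68) and 5 of 10 fibroblast markers. The summed level of the 2 leukocyte markers was 18.8 in siCoCoA dex, 17.8 in siCoCoA ethanol, 16.4 in siNS dex and 16.2 in siNS ethanol arrays. For the 2 endothelial markers it was 9.16 in siCoCoA dex, 9.58 in siCoCoA ethanol, 9.32 in siNS dex and 9.33 in siNS ethanol arrays, and for the 5 fibroblast markers it was 30.7 in siCoCoA dex, 29.4 in siCoCoA ethanol, 29.7 in siNS dex and 29.3 in siNS ethanol arrays. The part of these levels in the results was not tested. Of 13 measured epithelial and alveolar markers, 8 were above the line in all 4 groups, among them KRT8 and EPCAM, and 3 (CLDN4, NAPSA and AGER) were below it in all 4.

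Against the other depletions the siCoCoA response was tested directly, in comparisons that all share the siCoCoA arrays with the one above. Against siCCAR1, 1 gene passed (0.00943%; paired 3, 0.0283%). CILP, a matrix protein of cartilage, had a response of 2.82 ± 0.12 in siCoCoA pairs and 1.43 ± 0.50 in siCCAR1 pairs (SD, n = 4 and 4; difference 1.38 ± 0.24 SE, limma, adjusted p = 0.0185). Its ethanol level was near background, at 4.76 in siCoCoA and 4.68 in siCCAR1 arrays. Against siCCAR2, 5 genes passed (0.0471%; paired 16, 0.151%). TUBA3E, an alpha tubulin, had 0.87 ± 0.23 in siCoCoA pairs and 2.64 ± 0.23 in siCCAR2 pairs (SD, n = 4 and 4; difference −1.76 ± 0.20 SE, limma, adjusted p = 2.08e-06). Its close relative TUBA3C, whose signal the probes may not separate, differed by −0.98 (lost in the paired fit, adjusted p = 0.0786), EDN2, a vasoconstrictor peptide, by −1.57, BCORL1, a corepressor, by −1.24 and CKB, the brain creatine kinase, by 0.94 (each limma, adjusted p = 0.0447 unpaired). In ethanol TUBA3E, TUBA3C and EDN2 were near background under both siRNAs, TUBA3E at 4.43 in siCoCoA and 4.36 in siCCAR2 arrays, and TUBA3C also in siCoCoA dex. BCORL1 was near background in siCoCoA dex (4.845) and in siCCAR2 ethanol (4.897). TUBA3C is the fourth gene lower in siCoCoA cells and was named after its value was seen.

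Against siZNF282, which had 2 pairs, 2 genes passed (0.0189%; paired 17, 0.16%). CKB had 1.79 ± 0.34 in siCoCoA pairs and 0.47 ± 0.32 in siZNF282 pairs (SD, n = 4 and 2; difference 1.32 ± 0.23 SE, limma, adjusted p = 0.022). In dex its level was 8.863 in siCoCoA, 8.906 in siZNF282 and 9.631 in siCCAR2 arrays. In ethanol it was lower in siCoCoA arrays (7.075) than in siZNF282 (8.441) and siCCAR2 arrays (8.782). EMP1 had 1.19 ± 0.31 in siCoCoA pairs and 2.94 ± 0.34 in siZNF282 pairs (SD, n = 4 and 2; difference −1.75 ± 0.32 SE, limma, adjusted p = 0.022). EMP1 averaged 2.23 ± 0.32 in siCCAR1 pairs and 1.90 ± 0.24 in siCCAR2 pairs (SD, n = 4 each), and all 4 siCoCoA pairs, at most 1.47, lay below every pair of the other 4 siRNAs, the lowest of which was 1.56. Its difference from siCCAR1 was −1.04 (limma, adjusted p = 0.519, paired 0.045) and from siCCAR2 −0.70 (limma, adjusted p = 0.663, paired 0.142). CASP1 differed by 1.20 from siCCAR1, by 1.03 from siCCAR2 and by 1.24 from siZNF282, with adjusted p of 0.0148, 0.0212 and 0.0253 in the paired limma fit and of at least 0.6 in the unpaired one. These counts moved with single arrays, to between 0 and 2 genes against siCCAR1, 1 and 7 against siCCAR2, and 0 and 217 against siZNF282, the last without siZNF282 ethanol replicate 3.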

How the data were processed

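The authors' deposited values are log2 probe intensities of 40 Illumina arrays, normalized between arrays; the submitters' processing notes name limma 3.14.4, and background correction, normalization and genome build are not given in the sources used here. Another table with 80 sample columns of signal and detection p, named by chip position, could not be tied to samples and was not used, against the plan to start from it. Of 34469 probes, 26360 carried 1 gene symbol, 3 several and 8106 were not listed; only the first were kept. Probes needed a mean above 5 in at least 1 of 10 groups (13903 probes), and the brightest stood for its gene (10608 genes). Group means were fitted to all 40 arrays with limma 3.58.1 in R 4.3.3 (30 residual and 5.86 prior degrees of freedom), 2-sided, adjusted with Benjamini-Hochberg over all genes, called under 0.05.

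Same-numbered dex and ethanol arrays deviated together in all 20 pairs (correlations of deviations 0.127 to 0.47). A paired fit with each pair as a block (15 residual degrees of freedom) is therefore given beside a difference of dex responses where it changes the call. Calls of the dex response under a single siRNA are from the unpaired fit unless stated. The pairing comes from the replicate numbers in the titles and from this check. A gene is called near background where its group mean lay below 5. The members, the 36 gene lists, the rule for named genes, the tests and the alternatives were chosen with earlier results of these data known. The rule named, for each sign, called genes and the smallest p up to 6 genes; the siRNA targets and NR3C1; 2 genes per described list; the 6 and 4 largest shifts among dex-responsive genes; and up to 3 called genes per sign against each other depletion. The number of arrays limits precision. The fitting code was tested on simulated data.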

Additional observations from a re-analysis of the deposited data

Results flagged for a closer look

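The difference in dex response between siCoCoA and siNS cells was itself tested, and passed for 1 gene unpaired and 5 genes paired. EMP1 passed in both fits, with a difference of −1.30 on the log2 scale. CASP1 (1.24), SLC15A3 (0.98), ZNFX1 (0.90) and NT5C3A (0.69) passed in the paired fit only.

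Among 116 combinations of a named gene and a group of 4 or 6 arrays, 12 held an array whose gap to its nearest neighbour was large for the range of its group by Dixon's criterion. Chance gives about 1 in 20 groups. In siCoCoA dex arrays these were ST8SIA4 on array 2 (6.06) and BEST2 on array 3 (7.18). In siCoCoA ethanol arrays they were EMP1 (7.85) and CALCOCO1 (5.00) on array 1, FRMD8 (8.53) and SP4 (6.90) on array 2, LINC02180 (5.64) on array 3 and TNFAIP3 (6.35) on array 4. In siNS dex arrays they were MT2A on array 1 (13.8) and CCAR1 on array 4 (4.60). In siNS ethanol arrays they were NT5C3A on array 1 (10.1) and ZNFX1 on array 2 (7.25).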

How the results depend on the processing

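The direction of the difference held for EMP1, CASP1, ZNFX1, NT5C3A and SLC15A3 under every alternative run. The count of genes with an altered response was 1 with the replicate number as a block. It was 5 with the replicate block of siRNA and replicate pair and 8 with that block on the 20 arrays alone, a setting chosen after seeing the data. It was 0 with only the arrays of the 4 groups, with no filter, and with siNS replicates 1 to 4 only. Leaving out 1 array gave 0 to 2 genes, and leaving out 1 pair of the paired fit, also added later, gave 2 to 9. Against siCCAR1 the count of 1 became 0 with only the arrays of the 4 groups, 2 and 3 with the replicate blocks by number and by pair, 4 with array weights, and 0 to 2 without 1 array. Against siCCAR2 the count of 5 became 1 with only the 4 groups, a filter line of 6, no filter, array weights or centred medians, 2 with an intensity trend, 14 and 16 with the blocks by number and by pair, and 1 to 7 without 1 array. Against siZNF282 the count of 2 became 0 with only the 4 groups or with array weights, 29 and 17 with the blocks, and 0 to 217 without 1 array. The differences of NR3C1, ZNF282 and CCAR2 had no stable sign: NR3C1 turned to 0.085 with array weights and 0.079 with siNS replicates 1 to 4 only, ZNF282 to −0.047 with siNS replicates 1 to 4 only, and without single arrays NR3C1 ran from −0.157 to 0.106, ZNF282 from −0.0978 to 0.125 and CCAR2 from −0.225 to 0.0443. In the paired fit, NR3C1 was 0.0920 without siCoCoA pair 1 and 0.0221 without siNS pair 5, and ZNF282 was −0.121 without siCoCoA pair 1, −0.0797 without siNS pair 3 and −0.0507 without siNS pair 5. The dex responses of siCoCoA cells (832 to 994 calls without 1 array) and siNS cells (1507 to 1779) and the median shifts of dex-responsive genes (−0.106 to −0.0512 raised, −0.166 to −0.113 lowered) kept their side. The cause of these moves was not tested. Probes near background limit what can be seen for CALCOCO1, CASP1, SLC15A3, IFNL1, RETNLB, LCK, BEST2, CILP, EDN2, TUBA3C and TUBA3E, among others. The same holds for NLRC5, TLR3, LAMP3 and BCORL1.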
